A study of Mus musculus with 15 samples.

Results

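The TCF and LEF factors analysed here are Lef1, Tcf7l1 (also called Tcf3) and Tcf7l2 (also called Tcf4), DNA-binding partners of beta-catenin. They are 3 genes of 19937 measured, taken by name by a rule that uses no measured value, although earlier results of these data were known when they were chosen. Each was represented by 1 probe set. Tcf7, another gene of the family, is not analysed here. Mouse embryonic stem (ES) cells of a single line were profiled on 15 arrays, 3 in each of 5 culture groups. The line had been adapted to culture in a pair of kinase inhibitors (2i), and the cells of all groups carried the biotin ligase BirA and a Ctnnb1 knock-in that fuses beta-catenin to a biotin and 3xFLAG tag. CHIR99021 inhibits GSK3, the kinase that marks beta-catenin for degradation, and PD0325901 inhibits MEK, the kinase upstream of ERK. The 2iLIF group stayed in long-term culture with CHIR99021 at 3 µM, PD0325901 at 1 µM and the cytokine LIF. The other groups spent the last 24 h without LIF: 2i kept both inhibitors, CHIR kept CHIR99021, PD03 kept PD0325901, and DMSO kept neither and received the solvent. The results hold for 1 line whose beta-catenin is tagged, and no label says that the replicates were separate cultures, so p-values measure a spread between samples that could be technical.

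TCF and LEF proteins bind DNA through an HMG box and carry a region at their amino end that binds beta-catenin. Without beta-catenin they recruit TLE (Groucho) co-repressors, and with it they can activate transcription, so that GSK3 inhibition can turn a repressed target into an active one. In mouse ES cells Tcf7l1 is known mainly as a repressor that restrains genes of naive pluripotency, while Lef1 is both a partner of beta-catenin and, in many tissues, a target of the pathway. The arrays measure RNA and say nothing of the protein, of its location or of its binding to beta-catenin.

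All values are log2 RMA signals, a scale on which a difference of 1 is a doubling. Array medians lay between 6.98 and 7.06. The 7 pluripotency markers averaged 11.77 to 11.89 on each array, and Pou5f1 means lay between 12.49 and 12.54 in all groups. Other markers of this list were not as even: in 2iLIF minus DMSO 4 of the 7 were higher and 1 was lower, with Zfp42 at 9.82 in DMSO and 10.66 in 2iLIF, and Utf1 at 12.51 and 11.57. Of all genes 34.7% had a limma adjusted p under 0.05 in that comparison, in either direction. The 7 feeder fibroblast markers averaged 6.30 to 6.50 on each array, and 3 of them had means under 6 in every group. The 7 primitive endoderm markers averaged 6.52 to 6.70. A known target of each pathway differed with its factor. Axin2, a feedback target of beta-catenin, differed by 1.45 ± 0.08 (SE) in CHIR minus DMSO (limma adjusted p = 2.42e-09). Dusp6, an ERK-induced phosphatase, differed by -1.72 ± 0.06 in PD03 minus DMSO (limma adjusted p = 1.3e-11). The Dusp6 mean was also lower in CHIR (10.41) than in DMSO (11.06). Socs3, a STAT3 target, differed by 1.64 ± 0.08 in 2iLIF minus 2i (limma adjusted p = 1.4e-09).

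Lef1 was lower in every group that kept an inhibitor or LIF than in DMSO, and lower the more of these factors the group kept. On the 3 arrays of 2iLIF it read 7.03, 7.03 and 6.91, with a mean of 6.99 ± 0.07 (SD, n = 3). In 2i it read 8.54, 8.61 and 8.56, with a mean of 8.57 ± 0.04 (SD, n = 3). In PD03 it read 9.47, 9.51 and 9.48, with a mean of 9.49 ± 0.02 (SD, n = 3). The levels thus climbed from a value near the array median to one well above it. In CHIR the arrays read 9.77, 9.66 and 9.65, with a mean of 9.69 ± 0.06 (SD, n = 3), and in DMSO they read 10.06, 10.28 and 10.24, with a mean of 10.19 ± 0.12 (SD, n = 3). The order from low to high was 2iLIF, 2i, PD03, CHIR and DMSO, and no array of one group overlapped with an array of another. Such a lack of overlap in all 10 pairs of groups was seen in 1.7% of genes, and in a single pair in 26% to 42%. The difference between 2iLIF and DMSO was 9.19-fold. That fold is a lower bound if the 2iLIF signal is background, since no detection calls were used here.

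**Figure D1:**
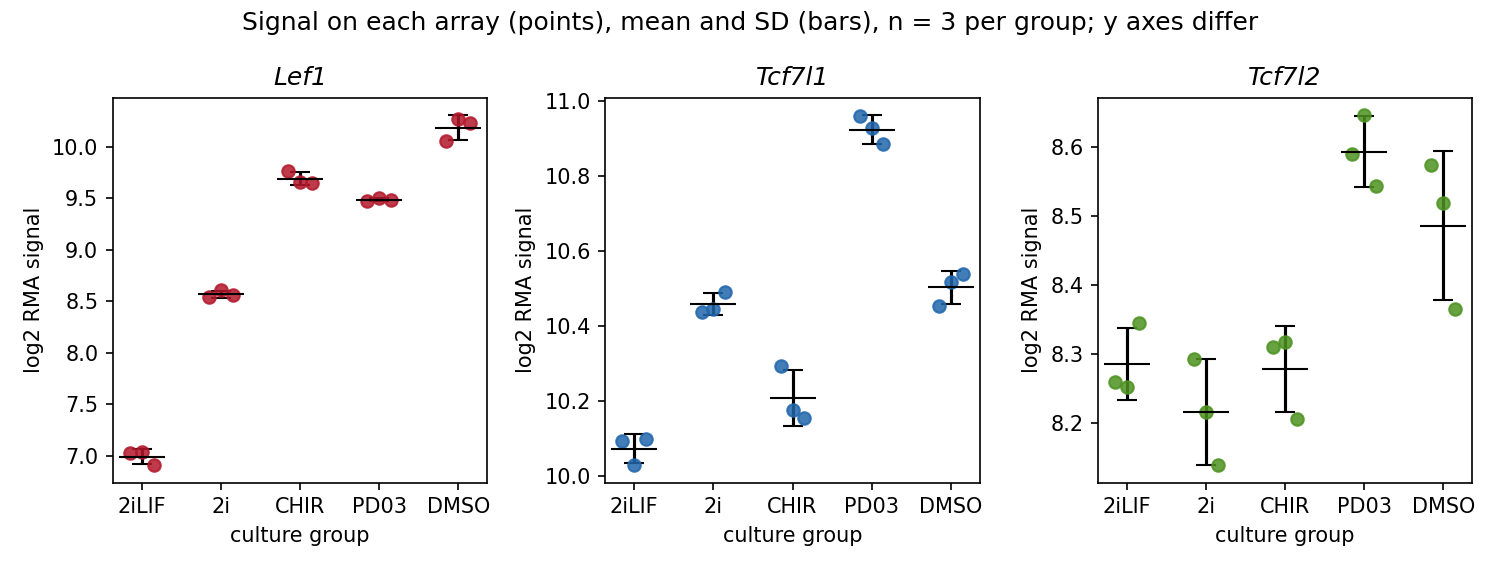
Log2 RMA signal (y axis, scaled separately in each panel) of Lef1, Tcf7l1 and Tcf7l2 on each array (points) by culture group (x axis), with the group mean and SD (bars, n = 3). Lef1 rises from a mean of 6.99 in 2iLIF to 10.19 in DMSO with no overlap between groups, Tcf7l1 is highest in PD03 at 10.92, and Tcf7l2 spans a narrower range, from 8.22 in 2i to 8.59 in PD03.

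Lef1 passed in all 10 comparisons between pairs of groups, where passing means an adjusted p under 0.05 in limma over all 19937 genes. The number of genes that passed in all 10 was 97, or 0.487% of those tested, and the median gene passed in 1. These comparisons reuse the same groups and are not independent of each other. Between groups the Lef1 means spanned 3.20, a range wider than or equal to that of 99.94% of genes.

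CHIR99021 alone, PD0325901 alone and the pair were each set against DMSO. In CHIR minus DMSO, where 20.8% of genes passed, Lef1 differed by -0.50 ± 0.05 (SE, 1.41-fold lower, limma adjusted p = 6.54e-06). In PD03 minus DMSO, where 16.8% passed, it differed by -0.70 ± 0.05 (1.63-fold lower, limma adjusted p = 1.69e-07). Each inhibitor alone was thus accompanied by less Lef1 RNA, and the MEK inhibitor by the lower level. In CHIR minus PD03, where 25.8% of genes passed, the difference was 0.20 ± 0.05 (limma adjusted p = 0.0108), and this call was lost without CHIR replicate 1 (adjusted p = 0.0541). With both inhibitors the difference was larger: in 2i minus DMSO, where 25.5% of genes passed, Lef1 was at -1.62 ± 0.05 (SE, 3.08-fold lower, limma adjusted p = 6.47e-12).

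LIF came with a further, similarly sized step down in Lef1. In 2iLIF minus 2i, where 12.2% of genes passed, Lef1 differed by -1.58 ± 0.05 (SE, 2.99-fold lower, limma adjusted p = 1.15e-10), the third largest absolute difference among the 19937 genes. Against CHIR it was 6.51-fold lower in 2iLIF (-2.70 ± 0.05, limma adjusted p = 7.47e-14), and no gene differed more in that comparison, in which 23.1% of genes passed. Against PD03 it was 5.66-fold lower (-2.50 ± 0.05, limma adjusted p = 4.84e-14, 31.7% of genes passed), and against DMSO 9.19-fold lower (-3.20 ± 0.05, limma adjusted p = 1.34e-15, 34.7% of genes passed). The groups of the last 3 comparisons differ in more than LIF. Among the 4 streak and mesoderm markers measured, Eomes, a T-box factor, ran opposite to Lef1 except between PD03 and CHIR. Its means were 7.79 in DMSO, 8.15 in PD03, 8.59 in CHIR, 8.66 in 2i and 9.59 in 2iLIF. Both genes were higher in CHIR than in PD03, with Lef1 means of 9.69 and 9.49. Eomes was the 1 marker of the 4 that was higher in 2iLIF minus DMSO, and none was lower. Mixl1 had means of 6.61 in DMSO and 6.76 in 2iLIF, Mesp1 of 6.30 and 6.21, and Tbx6 of 6.91 in both. The 4 together averaged 7.34 to 7.42 on the 2iLIF arrays and 6.81 to 6.996 on the DMSO arrays. Their part in the Lef1 result was not tested.

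**Figure D2:**
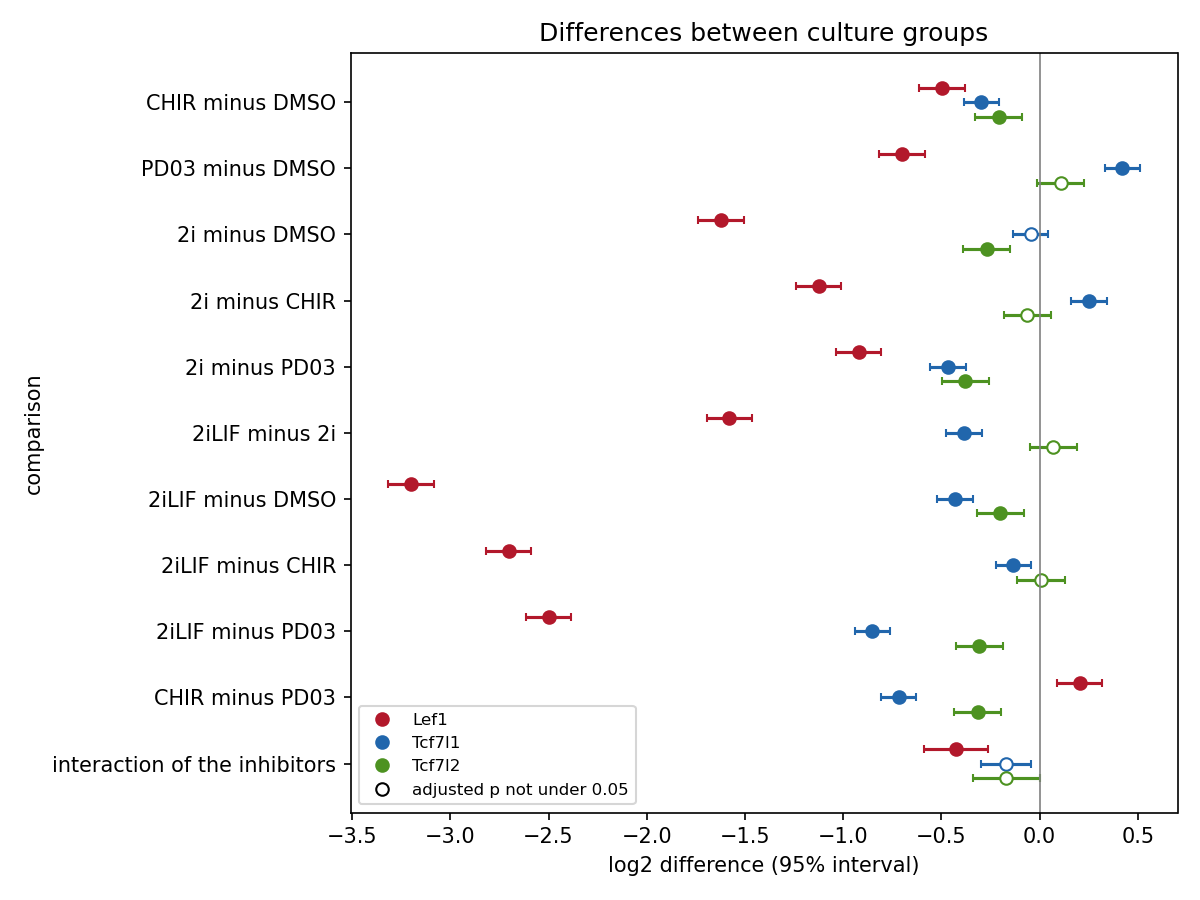
Log2 difference (x axis) of Lef1, Tcf7l1 and Tcf7l2 in each comparison (y axis), with 95% intervals from limma that are not adjusted for the number of genes. Filled points passed at an adjusted p under 0.05 and open points did not, and Lef1 extends to -3.20 in 2iLIF minus DMSO while Tcf7l1 and Tcf7l2 stay between -0.85 and 0.42.

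Tcf7l1 moved in opposite directions with the inhibitors: its RNA was higher with PD0325901 and lower with CHIR99021. On the arrays of PD03 it read 10.96, 10.93 and 10.88, with a mean of 10.92 ± 0.04 (SD, n = 3). In DMSO it read 10.45, 10.52 and 10.54, with a mean of 10.50 ± 0.04 (SD, n = 3). In 2i it read 10.44, 10.45 and 10.49, with a mean of 10.46 ± 0.03 (SD, n = 3). PD03 stood above the other groups, while 2i and DMSO overlapped. In CHIR it read 10.29, 10.17 and 10.15, with a mean of 10.21 ± 0.07 (SD, n = 3), and in 2iLIF 10.09, 10.03 and 10.10, with a mean of 10.07 ± 0.04 (SD, n = 3). These groups lay below the rest without overlap, and 2iLIF was the lowest. Such a lack of overlap was seen in 26% to 42% of genes in a single pair of groups.

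For Tcf7l1 the difference was 0.42 ± 0.04 (SE, 1.34-fold higher) in PD03 minus DMSO (limma adjusted p = 2.83e-06) and 0.25 ± 0.04 in 2i minus CHIR (limma adjusted p = 0.00102, 9.46% of genes passed). With CHIR99021 it was -0.30 ± 0.04 in CHIR minus DMSO (limma adjusted p = 9.57e-05) and -0.47 ± 0.04 in 2i minus PD03 (limma adjusted p = 1.03e-06, 19.5% of genes passed). The direction of each inhibitor's difference was therefore the same with and without the other inhibitor. In 2i minus DMSO, where both act, the difference was -0.05 with a 95% interval from -0.14 to 0.04 on the log2 scale (limma adjusted p = 0.509). The widest gaps were below PD03: 2iLIF was 1.80-fold lower than PD03 (-0.85 ± 0.04, limma adjusted p = 4.07e-10), and CHIR was 1.64-fold lower than PD03 (-0.72 ± 0.04, limma adjusted p = 4.6e-09).

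LIF went with lower Tcf7l1 as well as lower Lef1. In 2iLIF minus 2i Tcf7l1 differed by -0.39 ± 0.04 (SE, 1.31-fold lower, limma adjusted p = 1.16e-05), and in 2iLIF minus DMSO by -0.43 ± 0.04 (limma adjusted p = 5.69e-07). In 2iLIF minus CHIR it differed by -0.13 ± 0.04 (limma adjusted p = 0.0299). This call was lost without 2iLIF replicate 2 (adjusted p = 0.123), without CHIR replicate 1 (0.15), where the difference was -0.09, and with only these groups in the fit (0.0897). In all Tcf7l1 passed in 9 of the 10 comparisons between pairs of groups, this one included, where the median gene passed in 1. The share of genes that passed in 9 was not counted. Some of the 4 neural progenitor markers (Pax6, Sox1, Nes, Tubb3) differed in the same comparisons as Tcf7l1: 3 were higher and none lower in PD03 minus DMSO, none was higher and 3 were lower in CHIR minus DMSO, and none was higher and 1 was lower in 2iLIF minus 2i. Of all genes 8.67% were higher and 8.15% lower in the first, 10% and 10.8% in the second, and 4.56% and 7.66% in the third. Pax6 means were 8.19 in PD03, 7.76 in DMSO, 7.07 in 2i, 7.03 in CHIR and 6.54 in 2iLIF, the order of Tcf7l1. The others departed from that order: Sox1 was highest in DMSO (8.39, against 8.24 in PD03), and in 2iLIF Tubb3 (9.01) and Nes (7.53) stood above their DMSO means (8.47 and 7.41). Together the 4 averaged 8.43 to 8.49 on the PD03 arrays, 7.99 to 8.03 in DMSO, 7.83 to 7.94 in 2i, 7.63 to 7.64 in CHIR and 7.74 to 7.83 in 2iLIF. Their part in the Tcf7l1 result was not tested. In bulk RNA, fewer cells with a transcript and less of it per cell cannot be told apart.

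Tcf7l2, best known as the TCF of the intestinal epithelium, varied least among the 3 factors across the groups, with means spanning 0.38 against 0.85 for Tcf7l1 and 3.20 for Lef1. In PD03 it read 8.59, 8.65 and 8.54, with a mean of 8.59 ± 0.05 (SD, n = 3), and in DMSO 8.57, 8.52 and 8.36, with a mean of 8.49 ± 0.11 (SD, n = 3). In 2iLIF it read 8.26, 8.25 and 8.34, with a mean of 8.28 ± 0.05 (SD, n = 3). The groups without CHIR99021 were thus the higher ones, and they overlapped with each other. In CHIR it read 8.31, 8.32 and 8.21, with a mean of 8.28 ± 0.06 (SD, n = 3), and in 2i 8.29, 8.22 and 8.14, with a mean of 8.22 ± 0.08 (SD, n = 3). The 9 arrays with CHIR99021 lay between 8.14 and 8.34, below all 6 arrays without it, which started at 8.36. The gap was narrow, and the share of genes that split the arrays this way was not counted. In a single pair of groups, 26% to 42% of genes did not overlap.

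The difference in Tcf7l2 with CHIR99021 was -0.38 ± 0.06 (SE, 1.30-fold lower) in 2i minus PD03 (limma adjusted p = 1.68e-04) and -0.21 ± 0.06 in CHIR minus DMSO (limma adjusted p = 0.0145). The latter call was lost without CHIR replicate 3 (adjusted p = 0.0764), without DMSO replicate 1 (0.0746), without DMSO replicate 2 (0.0561) and with only these groups in the fit (0.0512). Tcf7l2 differed by -0.32 ± 0.06 in CHIR minus PD03 (limma adjusted p = 5.4e-04) and by -0.31 ± 0.06 in 2iLIF minus PD03 (limma adjusted p = 4.56e-04). Against DMSO, the 2i arrays differed by -0.27 ± 0.06 (limma adjusted p = 0.00179). In 2iLIF minus DMSO the difference was -0.20 ± 0.06 (limma adjusted p = 0.0103, and 0.0589 without DMSO replicate 1). Apart from 2i minus PD03 and CHIR minus DMSO, the groups compared so far for Tcf7l2 differ in more than CHIR99021. Neither PD0325901 nor LIF gave a difference in Tcf7l2 that passed. The groups of 2iLIF minus CHIR differ in both, so that comparison isolates neither. The 95% interval ran from -0.01 to 0.23 in PD03 minus DMSO (limma adjusted p = 0.24), from -0.18 to 0.06 in 2i minus CHIR (0.575), from -0.05 to 0.19 in 2iLIF minus 2i (0.551) and from -0.11 to 0.13 in 2iLIF minus CHIR (0.959).

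The interaction asks whether the difference made by CHIR99021 depends on PD0325901. For Lef1 the difference with CHIR99021 was -0.50 without PD0325901 and -0.92 ± 0.05 (SE, limma adjusted p = 1.11e-08) with it, and that with PD0325901 was -0.70 without CHIR99021 and -1.12 ± 0.05 (limma adjusted p = 3.8e-09) with it. The measured 2i mean of 8.57 lay below the 8.99 that the single effects would add up to, an interaction of -0.42 ± 0.08 (limma adjusted p = 0.00714). Of all genes 2.04% passed this test, 406 in number, and the number was 269 without PD03 replicate 1 and 255 without PD03 replicate 3. For Tcf7l1 the interaction was -0.17 with a 95% interval from -0.30 to -0.04 (limma adjusted p = 0.214), and for Tcf7l2 it was -0.17 with an interval from -0.34 to 0.00 (limma adjusted p = 0.405). These intervals are for a single gene and do not account for the number tested.

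**Figure D3:**
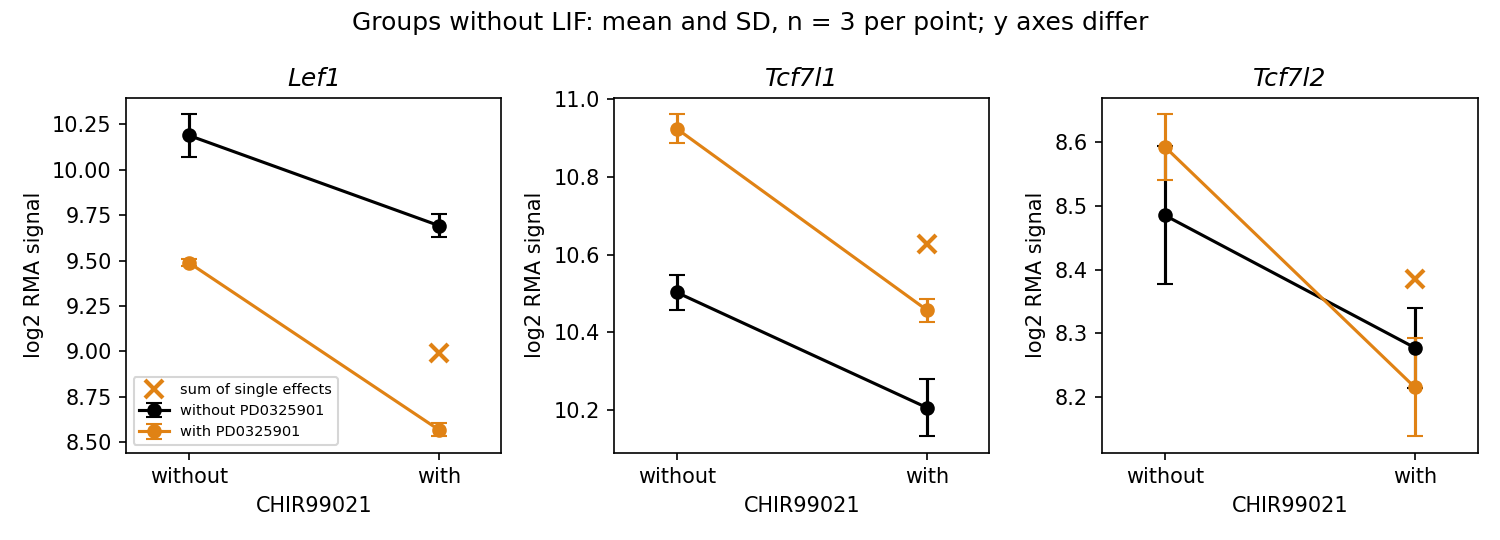
Mean log2 RMA signal and SD (y axis, scaled separately in each panel, n = 3) without and with CHIR99021 (x axis), in the absence (black) and presence (orange) of PD0325901, for the 4 groups without LIF. The cross marks the 2i level that the single effects would add up to; for Lef1 it stands at 8.99 and the measured mean at 8.57.

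Among genes of co-factors that work with these proteins, Ctnnb1, which encodes beta-catenin, had means between 11.91 and 12.03. Ctnnb1 differed by -0.12 ± 0.03 (SE) in 2i minus PD03 (limma adjusted p = 0.0152), and by -0.09 ± 0.03 in CHIR minus DMSO (limma adjusted p = 0.0683). Of 12 genes of beta-catenin and its co-activators, 1 was higher and 2 lower in CHIR minus DMSO, where 10% of all genes were higher and 10.8% lower. The higher one was Tbl1x (0.11), and the lower ones were Bcl9l (-0.22), a bridge between beta-catenin and Pygo proteins, and the acetyltransferase gene Ep300 (-0.16). In PD03 minus DMSO 3 were higher and none lower, against 8.67% and 8.15% of all genes: Tbl1xr1 (0.19), the acetyltransferase gene Crebbp (0.15) and Tbl1x (0.14). The median of the list was -0.04 in the first comparison and 0.02 in the second, against -0.01 and 0.00 over all genes. For LIF, in 2iLIF minus 2i, none was higher and 3 were lower (median -0.07, and -0.01 over all genes), where 4.56% of genes were higher and 7.66% lower. More were lower in other comparisons. In 2i minus PD03, where 19.5% of all genes passed, none was higher and 6 were lower (median -0.13, and 0.01 over all genes). In 2iLIF minus DMSO, where 34.7% of all genes passed, 1 was higher and 7 were lower (median -0.10).

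The TLE co-repressor genes differed in unlike directions. Tle3 was at 9.36 ± 0.13 in DMSO, 9.53 ± 0.06 in CHIR, 9.81 ± 0.06 in PD03, 9.59 ± 0.01 in 2i and 9.88 ± 0.07 in 2iLIF (SD, n = 3 each). It was 0.45 ± 0.06 (SE) higher in PD03 than in DMSO (limma adjusted p = 3.18e-05) and 0.29 ± 0.06 higher in 2iLIF than in 2i (limma adjusted p = 0.00269). Tle4 ran the other way, from 11.22 in DMSO to 10.94 in CHIR, 10.93 in PD03, 10.73 in 2i and 10.63 in 2iLIF. Its difference was -0.28 ± 0.05 in CHIR minus DMSO (limma adjusted p = 5.45e-04) and -0.30 ± 0.05 in PD03 minus DMSO (limma adjusted p = 4.35e-04). Ctbp2, another co-repressor gene, differed by -0.24 and -0.23 in the same comparisons and Tle5, a short member of the TLE family, differed by 0.30 in PD03 minus DMSO. Of the 12 genes of co-repressors and antagonists, 1 was higher and 3 lower in CHIR minus DMSO (median -0.04), and 2 were higher and 2 lower in PD03 minus DMSO (median -0.01). With LIF (2iLIF minus 2i) 2 were higher and 2 lower (median 0.01). All-gene shares, higher and lower, were 10% and 10.8% in CHIR minus DMSO and 8.67% and 8.15% in PD03 minus DMSO. In 2iLIF minus 2i they were 4.56% and 7.66%. In 2i minus PD03, where 19.5% of all genes passed, none of the 12 was higher and 3 were lower (median -0.06).

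Among 6 genes of kinases and a ligase that modify TCF and LEF proteins, Hipk1 differed by -0.35 in CHIR minus DMSO and by -0.33 in PD03 minus DMSO, and Map3k7 by 0.19 and 0.25. Rnf138, a ubiquitin ligase that acts on TCF and LEF, differed by -0.18 in CHIR minus DMSO. Of the 6, 1 was higher and 2 lower in CHIR minus DMSO (median -0.11), and 1 was higher and 1 lower in PD03 minus DMSO (median 0.07). Over all genes 10% were higher and 10.8% lower in the former, and 8.67% and 8.15% in the latter. In 2i minus PD03, where 19.5% of all genes passed, none of the 6 was higher and 4 were lower (median -0.15). Hipk2 was the one gene of the list that passed in 2iLIF minus 2i, at -0.29 (list median -0.06), where 12.2% of all genes passed.

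Known targets of Wnt/beta-catenin signalling differed in both directions. Of 17 measured, 8 were higher and 2 lower in CHIR minus DMSO (median 0.12), 1 was higher and 4 lower in PD03 minus DMSO (median -0.06), and 2 were higher and 3 lower in 2iLIF minus 2i (median -0.06). Over all genes 10% were higher and 10.8% lower in the first, 8.67% and 8.15% in the second, and 4.56% and 7.66% in the third. The medians over all genes were -0.01, 0.00 and -0.01. In CHIR minus DMSO the receptor gene Tnfrsf19 was at 1.70 ± 0.04 (SE, limma adjusted p = 6.7e-13), the zinc finger gene Sp5 at 0.54 ± 0.07 (limma adjusted p = 4.1e-05) and its relative Sp8 at 0.50 ± 0.06 (limma adjusted p = 1.89e-05), where Lef1 was at -0.50. Sp8 lay below the array medians, with means of 5.86 in DMSO, 6.36 in CHIR, 6.23 in 2i and 5.94 in 2iLIF. The lower targets were Myc (-0.41) and Nkd1 (-0.17). Myc also differed by -0.998 in PD03 minus DMSO, where Notum, a secreted Wnt deacylase, was at 0.80. Tnfrsf19 was at -0.77 ± 0.04 in 2iLIF minus 2i (limma adjusted p = 1.01e-08) and Sp5 at 0.45 ± 0.07 (limma adjusted p = 3.82e-04).

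Sequences of promoters show which of these targets carry the letters that TCF and LEF proteins bind. Windows from 250 bases before to 50 bases after the annotated start were taken from RefSeq (GRCm38.p6) and searched on both strands for CTTTGAT or CTTTGAA. Of the 10 Wnt/beta-catenin targets with a window, 4 held a match (Sp5, Sp8, Tnfrsf19 and Dkk1), against 8.61% of 15613 measured genes with a window. Of the 4 genes repressed by Tcf7l1 in ES cells, all with a window, none held a match. Sp5 and Tnfrsf19 are shown because they differed with CHIR99021, and their matches are in capitals, for Tnfrsf19 on the opposite strand. In Sp5 (chr2:70474673-70474972, + strand) the match began 104 bases before the start, and in Tnfrsf19 (chr14:61037938-61038237, - strand) it began 202 bases before it.
Sp5: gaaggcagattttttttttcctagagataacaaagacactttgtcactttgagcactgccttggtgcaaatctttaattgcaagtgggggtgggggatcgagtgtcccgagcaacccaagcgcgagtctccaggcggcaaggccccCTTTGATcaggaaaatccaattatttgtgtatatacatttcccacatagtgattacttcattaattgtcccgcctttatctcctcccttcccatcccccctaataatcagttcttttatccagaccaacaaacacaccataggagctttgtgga
Tnfrsf19: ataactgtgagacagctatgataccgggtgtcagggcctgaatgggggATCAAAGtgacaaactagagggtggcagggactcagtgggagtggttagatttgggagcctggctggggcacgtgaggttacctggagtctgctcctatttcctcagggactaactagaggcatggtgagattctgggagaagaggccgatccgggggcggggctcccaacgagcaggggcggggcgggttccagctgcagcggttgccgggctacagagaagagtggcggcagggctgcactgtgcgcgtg
Sp8, with a match 51 bases before the start, differed by 0.50 in CHIR minus DMSO, and Dkk1, with a match 117 bases before it, by -0.05 (limma adjusted p = 0.687). All 3 TCF and LEF genes had windows, 7 in all, and none of these held the TCF and LEF letters, the STAT letters TTCNNNGAA or the ETS letters CCGGAAG. Of all 32851 windows, 8.65%, 8.30% and 8.86% held them, in the same order. The window of the first listed Lef1 start (chr3:131110047-131110346, + strand) is printed, with no capitals, because Lef1 differed with all 3 factors.
Lef1: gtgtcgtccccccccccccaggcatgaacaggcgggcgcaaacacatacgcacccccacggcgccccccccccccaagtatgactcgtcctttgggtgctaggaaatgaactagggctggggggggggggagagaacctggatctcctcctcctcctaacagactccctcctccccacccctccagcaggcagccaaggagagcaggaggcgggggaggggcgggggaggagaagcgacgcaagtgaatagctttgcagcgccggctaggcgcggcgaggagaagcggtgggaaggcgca
A match is a run of letters and not a measured binding site, and the absence of one covers these windows alone.

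Genes that Tcf7l1 is known to repress in mouse ES cells were higher than in DMSO both in CHIR, where Tcf7l1 was lower, and in PD03, where it was highest. All 4 measured (Nanog, Klf2, Tfcp2l1 and Nr0b1) were higher in CHIR minus DMSO (median 0.83) and in PD03 minus DMSO (median 0.67). Of all genes 10% were higher in the former and 8.67% in the latter. Nr0b1 differed least, with means of 12.00 in DMSO, 12.18 in CHIR and 12.20 in PD03. In CHIR minus DMSO, Nanog was at 0.70 ± 0.04 (SE, limma adjusted p = 1.76e-08), Klf2 at 0.96 ± 0.04 (limma adjusted p = 4.03e-11) and Tfcp2l1 at 1.01 ± 0.05 (limma adjusted p = 1.94e-09). In PD03 minus DMSO, Nanog was at 0.82 ± 0.04 (limma adjusted p = 3.59e-09), Klf2 at 1.20 ± 0.04 (limma adjusted p = 5.13e-12) and Tfcp2l1 at 0.53 ± 0.05 (limma adjusted p = 3.02e-06), while Tcf7l1 was at 0.42. With LIF, in 2iLIF minus 2i, Tfcp2l1 was the one gene of the list that passed, at 0.73 ± 0.05 (limma adjusted p = 1.47e-07), while Tcf7l1 was at -0.39. In that comparison 12.2% of all genes passed.

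**Figure D4:**
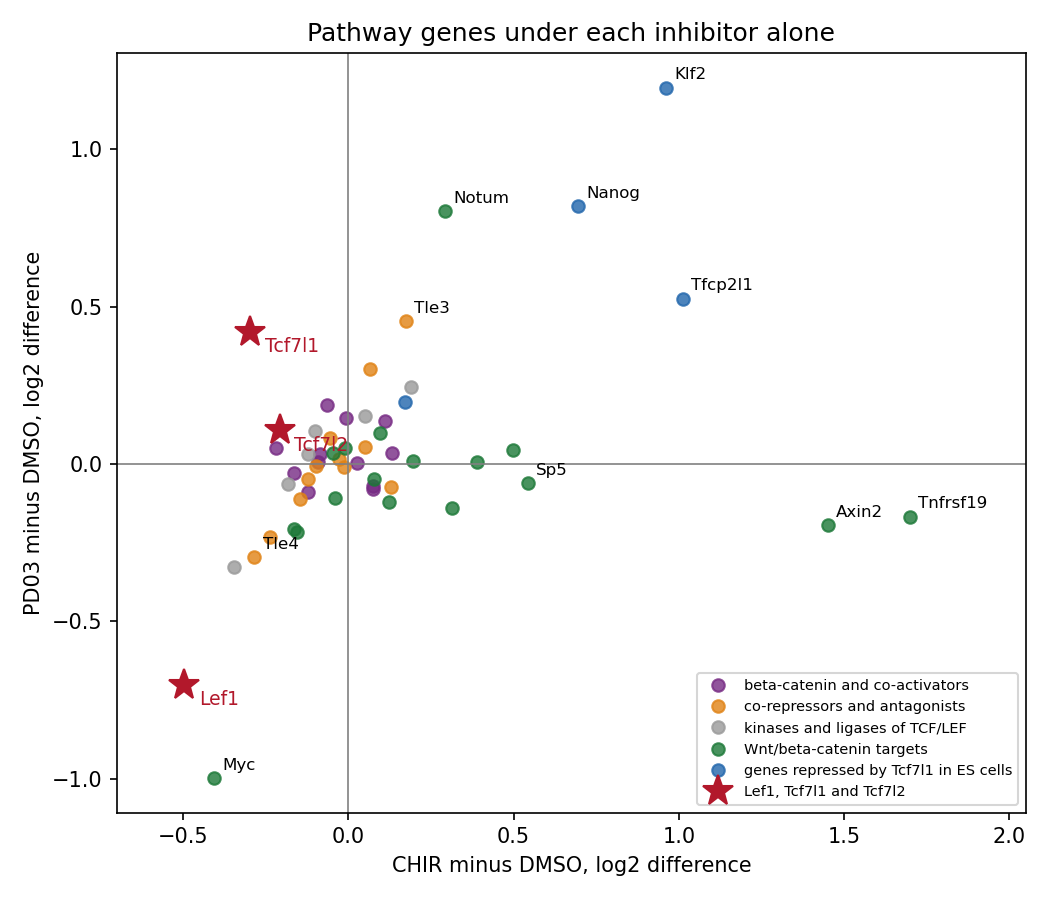
Log2 difference in CHIR minus DMSO (x axis) against PD03 minus DMSO (y axis) for genes of the pathway lists (coloured points, 1 per gene) and for the 3 factors (red stars). The comparisons share the DMSO arrays. Lef1 lies at -0.50 and -0.70, Tcf7l1 at -0.30 and 0.42, and Axin2 and Tnfrsf19 lie far right at 1.45 and 1.70.

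Response genes of ERK and of LIF were set beside Lef1. Of 6 ERK response genes, 5 were lower in PD03 minus DMSO (median -1.86, 8.15% of all genes lower), among them Dusp4 (-2.18) and Etv4 (-2.09). In 2i minus CHIR 5 were lower (median -1.21), where 3.76% of genes were lower. Lef1 was at -0.70 and -1.12 in these comparisons. Etv5 was the ERK response gene not lower in PD03 minus DMSO, with means of 11.78 in DMSO and 11.86 in PD03. The list was not specific to PD0325901. In CHIR minus DMSO, where Lef1 was at -0.50, 1 of the 6 was higher and 2 were lower (median -0.14). Of all genes 10% were higher and 10.8% lower there. Dusp4 had means of 9.28 in DMSO and 8.44 in CHIR. In 2iLIF minus 2i, where Lef1 was at -1.58, 4 of the 6 ERK response genes were higher (median 0.24, 4.56% of all genes higher). Of 5 LIF/STAT3 targets, 4 were higher in 2iLIF minus 2i (median 1.45, 4.56% of all genes higher), led by Bcl3 (1.83) and Socs3 (1.64).

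The genes whose pattern over the 15 arrays was most like each factor were found by Pearson's r among 1985 genes, those with group means spanning at least 0.5, leaving the factor itself out. These r values describe the same 15 arrays, which fall into 5 groups, and carry no test. For Lef1 they were Ext1, a heparan sulfate polymerase gene (r = 0.995), Vrtn (0.994), Foxo1, a forkhead factor of insulin signalling (0.988), Prelid3a (0.987) and Pdpn, a mucin-type membrane glycoprotein (0.986). Vrtn had means of 6.42 in 2iLIF, 7.70 in 2i, 8.54 in CHIR, 8.54 in PD03 and 9.16 in DMSO. The most opposite were Fry (-0.991), Sh3bp1 (-0.988), Crtap, Smarcd3 and Cmtm7 (-0.985 each).

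For Tcf7l1 the most alike were Atxn7l1 (r = 0.987), Scrn1 (0.985), Srgn, a proteoglycan core protein (0.974), the receptor gene Notch3 (0.969) and Usp13, a deubiquitinase (0.968), over the 15 arrays. Scrn1 stood at 10.80 in PD03 and 9.02 in 2iLIF. The most opposite were Zfp280b (-0.969), Ndufaf4 (-0.944), the homeobox gene En2 (-0.943), and Ebf1, a B-cell transcription factor, and Dapp1 (-0.942 each). Ebf1 stood at 7.47 in PD03 and 9.18 in CHIR. For Tcf7l2 the values were lower: Fgfr1, an FGF receptor gene, led at 0.929, followed by Smtn (0.897), Macf1 (0.895), Eid2b (0.881) and Shb (0.872). The most opposite to Tcf7l2 were Tspan6 (-0.946), Echdc2 (-0.911), Lhpp (-0.901), Prxl2a (-0.899) and Trh, the thyrotropin-releasing hormone gene (-0.897). Trh stood at 10.61 in PD03 and 12.59 in 2iLIF.

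**Figure D5:**
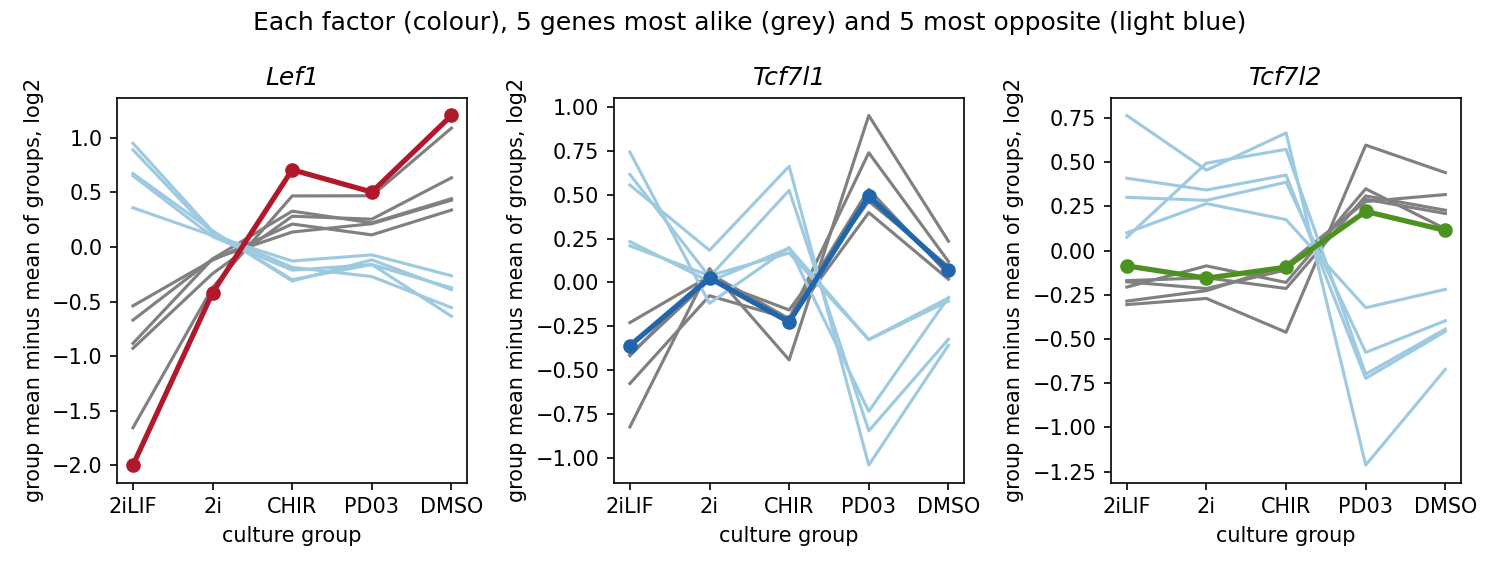
Group mean minus the mean of the 5 groups (y axis, log2, scaled separately) by culture group (x axis) for Lef1, Tcf7l1 and Tcf7l2 (colour), the 5 genes with the highest r to each (grey) and the 5 with the lowest (light blue). Lef1 spans 3.20 between 2iLIF and DMSO, more than each of the genes drawn with it.

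The 1 probe set of each gene sums over its transcripts. RefSeq lists 9 transcripts for Lef1, 3 for Tcf7l1 and 55 for Tcf7l2, and forms of Lef1 that lack the beta-catenin binding region are known, so a shift between forms would not be seen in these values.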

How the data were processed

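Total RNA of 15 samples in 5 groups was labelled with whole-transcript kits and hybridised to single-colour arrays, per the labels' protocols. The authors deposited log2 values per probe set, made with RMA per the submitters' processing notes. RMA subtracts background, equalises the arrays by quantiles and summarises probes. The version of RMA and the genome build of the array are not given in the sources used here. The quantile step hides a change shared by most genes, and RMA compresses folds of weak genes. The number of arrays limits the precision: the median SE over genes, in log2 units, was 0.0509 for a difference and 0.072 for the interaction.

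The table held 34760 probe sets, of which 21640 had 1 gene symbol in the platform annotation, 1321 had several and 11799 are unnamed here. Symbols were updated by gene identifier from the RefSeq table, which held 21553. For genes with several probe sets (954) the set with the highest mean was used. This left 19937 genes, with no filter on level. The 12 gene lists had 93 entries, of which 91 are analysed here. No value column was left unused.

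With limma 3.58.1 in R 4.3.3, a model of the 5 groups was fitted over all arrays by lmFit and eBayes, with 10 residual and 5.09 prior degrees of freedom. Contrasts were the 10 pairs of groups and the interaction, (2i minus PD03) minus (CHIR minus DMSO). All p-values of genes are two-sided and Benjamini-Hochberg adjusted over all genes, with a threshold of 0.05. The procedure was tested on simulated data, but the outcome is not given here and no call rests on it. The 3 factors and the lists were chosen with earlier results of these data known. Named genes were the 3 factors, up to 3 passing members of each list and comparison, a short list taken whatever its result (Axin2, Sp5, Nanog, Klf2, Dusp6, Socs3, Ctnnb1, Tle3, Tle4), and for each factor the 5 genes most alike and the 5 most opposite, leaving out predicted symbols. Genes that account for a small count and the promoters printed were chosen after their values were seen. The text leaves out some genes that this rule gives.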

Additional observations from a re-analysis of the deposited data

Results flagged for a closer look

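The difference in Lef1 between groups with and without CHIR99021 depended on PD0325901, by an interaction of -0.42 on the log2 scale (SE 0.08, limma adjusted p = 0.00714). All 12 fits that left out 1 array of the 4 groups kept it past the threshold, with values from -0.47 to -0.36 and a highest adjusted p of 0.0235.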

How the results depend on the processing

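Differences of the 3 factors and counts of genes passed were recomputed with a replicate block, with only the groups compared, with trend and robust variance priors, with arrays centred on their medians, with a low-value filter, with array weights, with the mean of a gene's probe sets, and without each array in turn. Several of these settings cannot change a difference itself. Each factor has 1 probe set, so the mean of probe sets repeated the main differences. The block, the variance priors, the filter and the fit of only the groups compared also left them as they were. In those settings the direction was fixed and only the adjusted p could move. Of 447 recomputed differences 436 kept their direction and their side of the threshold, 9 lost the threshold and 2 changed sign. With only the groups compared, Tcf7l2 in CHIR minus DMSO (-0.21, adjusted p = 0.0512) and Tcf7l1 in 2iLIF minus CHIR (-0.13, adjusted p = 0.0897) lost it, in fits of fewer arrays. Without 1 array at a time, Tcf7l2 ranged from -0.27 to -0.16 in CHIR minus DMSO (lost in 3 of 6 fits), from -0.26 to -0.16 in 2iLIF minus DMSO (lost in 1) and from -0.029 to 0.027 in 2iLIF minus CHIR, where the sign turned without 2iLIF replicate 3 (-0.02) or CHIR replicate 3 (-0.029) and no fit passed. Tcf7l1 ranged from -0.160 to -0.092 in 2iLIF minus CHIR (lost in 2), and Lef1 from 0.17 to 0.23 in CHIR minus PD03 (lost in 1). The number of genes passing the interaction was 406, and 255 to 437 without 1 array. The cause was not tested.

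The labels number the replicates 1 to 3 in each group. The deviations of same-numbered arrays from their group means correlated from -0.36 to 0.34 (median -0.01, 10 of 30 pairs over 0.1), and 4 of 15 arrays were closest to an array of their own number, so the numbers were not taken as pairs. With the replicate block, no call on the 3 factors changed, and the number of genes passed was 352 in the interaction and 4007 in CHIR minus DMSO.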
